A study of Mus musculus with 2 samples.

Results

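Type 1 conventional dendritic cells (cDC1) were taken as the cells that the deposited cell table labels cDC1, 134 of 7815 tumour leukocytes. They were sorted as live CD45+ cells from YUMM3.3 tumours, a transplantable mouse melanoma line, grown in C57BL6 mice and collected at day 12 after injection. One library came from a targeted therapy-naive tumour (NTT) and the other from a tumour of the derivative line that had acquired resistance to targeted therapy (RTT) and that was cultured under the BRAF inhibitor dabrafenib. Of the cDC1, 78 came from the 2975 NTT cells and 56 from the 4840 RTT cells. Each group was 1 tumour and 1 droplet library, so there was no replicate, no test between the tumours was possible, and the intervals given are 95% intervals that cover counting error only.

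cDC1 are the dendritic cell lineage that depends on the transcription factors IRF8 and BATF3. They take up material from dying cells through the receptor CLEC9A, present its antigens on MHC class I to CD8+ T cells (cross-presentation), and carry the chemokine receptor XCR1. In tumours they are also a source of the T cell-attracting chemokines CXCL9 and CXCL10, whose genes are induced by interferons.

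Values are unique molecular identifiers (UMIs), that is, counted mRNA molecules, summed over the cDC1 of a library and scaled by the total of those cells (CPM). Counts were taken from the 3′ end of transcripts and were not scaled to transcript length. The sums held 653951 UMIs for NTT and 413050 for RTT, so that 1 UMI equalled 1.53 and 2.42 CPM. The median was 7278 UMIs per NTT and 6738 per RTT cDC1, close to each other, whereas over all cells the RTT library was deeper (8336 against 5398 UMIs). The lowest number of detected genes was 1365 in an NTT and 1143 in an RTT cDC1. The libraries shared 7 cell barcodes, 1 of them a cDC1.

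The authors assigned clusters to cell types partly with known markers, so the marker levels that follow describe the label and do not test it. Clec9a (chromosome 6, 129408862 to 129424763, GRCm38, plus strand), the receptor for dead cells, was at 149.9 CPM in NTT and 159.8 CPM in RTT cDC1, against 9.38 and 1.96 CPM in cDC2, the type 2 conventional dendritic cells, and 12.7 and 3.53 CPM in DC3, a label whose cells carried most of the Ccr7 UMIs. Wdfy4, which is required for cross-presentation, was at 750.8 and 646.4 CPM against 110.2 and 81.3 CPM in cDC2. Itgae, which encodes the integrin CD103, was at 273.7 and 205.8 CPM against 6.45 and 24.2 CPM in cDC2, and Cd24a at 1080 and 1022 CPM against 194.6 and 254.2 CPM. Xcr1 (chromosome 9, 123852315 to 123862029, minus strand) was at 160.6 and 416.4 CPM, with 1 UMI in the 279 NTT cDC2 and 0 UMIs in the 413 RTT cDC2. In NK_cells, which should lack both receptors, 0 Clec9a UMIs were counted in either library and Xcr1 was found in 1 of 178 NTT and 0 of 51 RTT cells, at median depths of 5359 and 3967 UMIs.

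**Figure D1:**
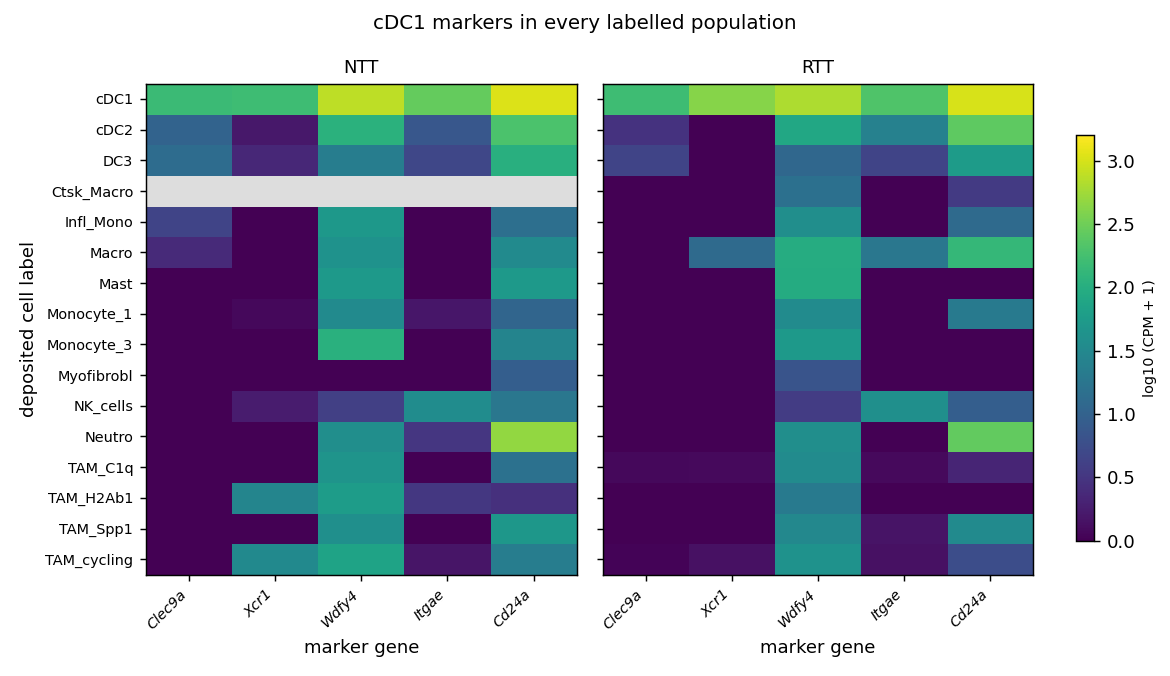
Level of the 5 markers in each deposited cell label (rows), as log10 of CPM + 1 of the summed UMIs, in NTT (left) and RTT (right); the grey row has no cells. The cDC1 row is high for all 5 genes in both libraries, and Clec9a reaches 149.9 and 159.8 CPM there.

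Every cDC1 had a UMI of at least 1 of the 5 markers. In NTT, 3 cells had 1 marker, 17 had 2, 22 had 3, 15 had 4 and 21 had all 5. In RTT the same counts were 1, 4, 10, 22 and 19. Outside the label, cells with 3 or more of the markers were rare, 12 of 2897 in NTT and 26 of 4784 in RTT, and 9 and 19 of these were labelled cDC2.

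Xcr1 was not confined to cDC1 in NTT. The cDC1 held 45.5% of the Xcr1 UMIs of the NTT library and 93.99% of those of the RTT library. In NTT, 61 UMIs lay in 30 of 169 cells labelled TAM_H2Ab1 and 61 in 22 of 103 cells labelled TAM_cycling. Clec9a was at 0 UMIs in these macrophage-labelled cells, and the complement gene C1qa was at 9879 and 8495 CPM in them against 220.2 CPM in NTT cDC1. Cadm1, an adhesion gene often used beside Xcr1 to define cDC1, was likewise higher in them (270.3 and 295.5 CPM) than in NTT cDC1 (62.7 CPM).

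Genes that set cDC1 apart from the other dendritic cells were read in both libraries. Of the 1759 genes with 100 or more UMIs over the cDC1 of both libraries, 70 (3.98%) were at least 2-fold higher in cDC1 than in both cDC2 and DC3 in both libraries. Over cDC2 alone these were 127 genes (7.22%) in NTT and 144 (8.19%) in RTT, and over DC3 alone 480 (27.3%) and 374 (21.3%). Among the 15 with the greatest smallest difference were Xcr1, Gcsam, Tlr3, Clec9a, Rab7b, Snx22, Itgae, Plet1, Wdfy4, Sept3, Naaa, Agpat3, Gatm and Unc119b. Xcr1, Clec9a, Itgae and Wdfy4 are markers by which such cells are recognised, so their place in this list is a description. Tlr3, the endosomal sensor of double-stranded RNA, was at 177.4 CPM in NTT and 184.0 CPM in RTT cDC1, with 22 and 30 UMIs in all cDC2 and 1 and 1 in all DC3. Naaa, a lysosomal acid amidase, was at 1587 and 1850 CPM and had a UMI in 76 of 78 and in all 56 cells.

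The size of the population differed between the tumours. cDC1 made up 2.62% of NTT leukocytes (Clopper-Pearson interval 2.08 to 3.26) and 1.16% of RTT leukocytes (0.875 to 1.50), a difference of -1.465 percentage points (Newcombe interval -2.16 to -0.846). Of the cells labelled cDC1, cDC2 or DC3, cDC1 were 15.9% in NTT (78 of 492, 12.7 to 19.4) and 10.6% in RTT (56 of 526, 8.14 to 13.6), a difference of -5.21 points (-9.42 to -1.04). Over the same cells, DC3 were 27.4% and 10.8%, while cDC2 were 56.7% and 78.5%. When cells of other labels with 3 or more markers were counted as cDC1, the share among dendritic cells was 18.3% and 15.4%, and the interval of the difference (-2.87 points, -7.48 to 1.705) included 0. These are relative shares of 1 sort per tumour, in which fewer cDC1 and more of other cells cannot be told apart.

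**Figure D2:**
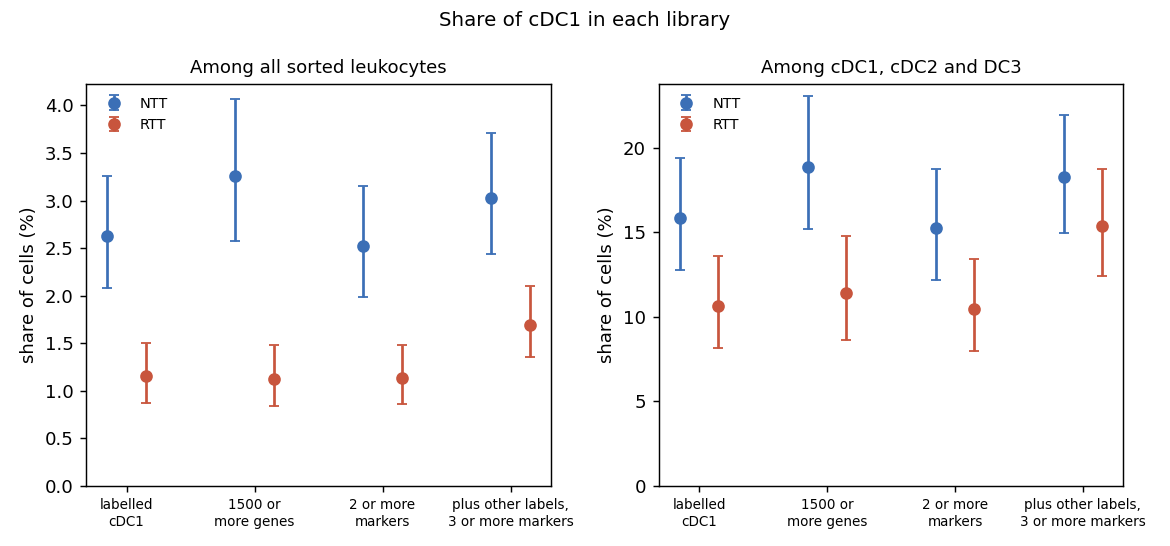
Share of cDC1 (%, points, with 95% exact binomial intervals as bars) in NTT (blue) and RTT (red), among all sorted leukocytes (left) and among cDC1, cDC2 and DC3 (right), for the label and for 3 other definitions. Under the label the shares were 2.62% and 1.16% of all cells, and among dendritic cells the NTT and RTT intervals overlap for every definition but that of cells with 1500 or more genes.

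Between the tumours, most genes of cDC1 differed little. Of 3255 genes with 50 or more UMIs over the cDC1 of both libraries, 223 (6.85%) were at least 2-fold lower in RTT and 126 (3.87%) at least 2-fold higher, and the median log2 ratio of RTT over NTT was 0.008. In cDC2 these shares were 7.49% and 7.20% of 6905 genes, and in DC3 7.22% and 5.47% of 3074 genes. The 10 genes lowest in RTT cDC1 among those with 100 or more UMIs in 10 or more cells were Cxcl9, Isg15, Irf7, Ly6a, Ifitm6, Zbp1, Ifi204, Dnase1l3, Ms4a4c and Il1r2. The 10 highest were Stmn1, Cd81, Birc5, Eif4ebp1, Tubb4b, Cdca8, Lsm2, Dut, Top2a and Smc2.

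**Figure D3:**
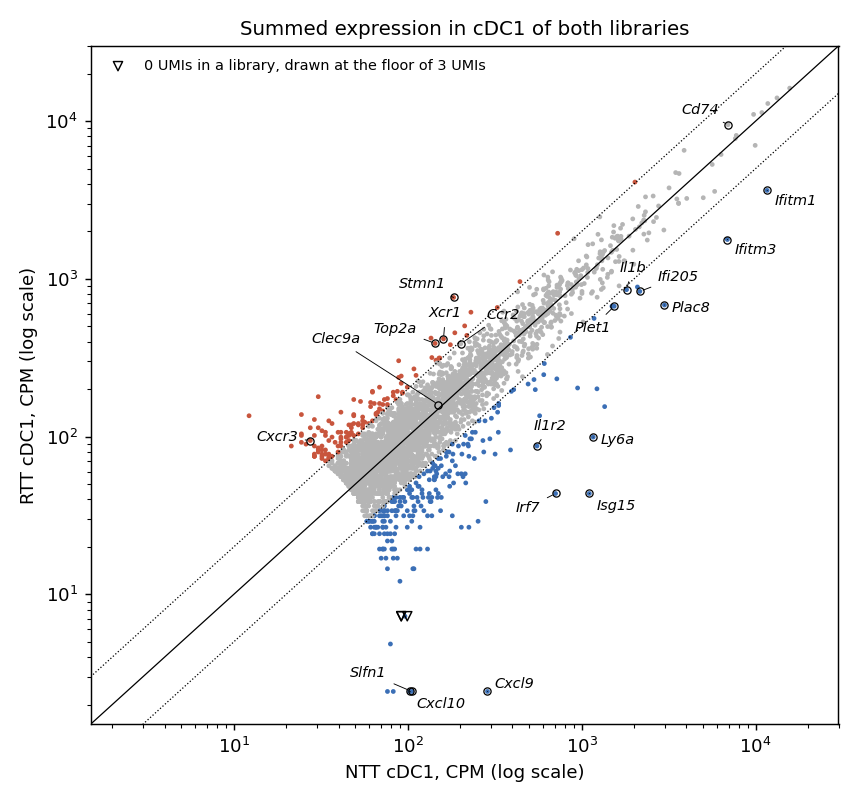
Summed expression of each of 3255 genes in NTT cDC1 (x axis) and RTT cDC1 (y axis), both in CPM on a log scale; the solid line marks equality, dotted lines mark 2-fold, and blue and red points are at least 2-fold lower or higher in RTT. Isg15 lies at 1107 and 43.6 CPM, Cxcl9 at 287.5 and 2.42 CPM, and Xcr1 above the 2-fold line at 160.6 and 416.4 CPM.

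Interferon-stimulated genes were lower in RTT cDC1. Isg15, a ubiquitin-like protein induced by interferon (chromosome 4, 156199424 to 156200818, minus strand), had 724 UMIs in 53 of 78 NTT cells and 18 UMIs in 8 of 56 RTT cells, or 1107 and 43.6 CPM (log2 ratio -4.67, interval -5.43 to -3.996). Irf7, the transcription factor that amplifies type I interferon production, was at 708.0 and 43.6 CPM (-4.02, -4.79 to -3.35). Ly6a, which encodes the surface protein Sca-1, was at 1165 and 99.3 CPM (-3.55, -4.04 to -3.10), and Zbp1, a sensor of Z-form nucleic acid, at 253.8 and 29.1 CPM (-3.13). Ifitm3, which restricts virus entry, was the most abundant of the list, at 6887 and 1777 CPM (-1.95, -2.07 to -1.84). All these intervals exclude 0.

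Of the 40 interferon-stimulated genes listed, 37 were in the matrix and 22 had 50 or more UMIs in cDC1. Of these 22, 19 were at least 2-fold lower in RTT and 0 at least 2-fold higher, with a median of -2.13, against 6.85% and a median of 0.008 over all genes. The exceptions were Ly6e (-0.86), Slfn2 (-0.56) and Phf11b (-0.80). A gene of low RTT level could reach 50 UMIs through NTT alone, so the sum over all 37 members is given beside the counts, 17430 CPM in NTT and 4721 CPM in RTT. Among the 15 members under 50 UMIs, Ifit1 had 47 UMIs in 7 NTT cells and 0 in RTT, 37 of the NTT UMIs in 1 cell. With the 0 UMIs of RTT set to a floor of 3 UMIs, Ifit1 was 9.90-fold lower, and Rsad2 had 25 and 0 UMIs (5.26-fold lower at this floor). In all, 9 members were at 0 UMIs in RTT cDC1 and 0 members in NTT cDC1. At 2000 UMIs per cell, Isg15 was found in 51.3% of NTT and 5.56% of RTT cDC1, with 2 RTT cells left out as shallower, and unthinned in 67.9% and 14.3%.

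The difference was spread over the cells. The summed level of the 37 genes ranged from 3053 to 71120 CPM in single NTT cDC1 with a median of 14790, and from 0 to 14990 CPM in RTT cDC1 with a median of 3594. Of the RTT cells, 1 lay above the NTT median and 18 lay below the lowest NTT cell, and 39 of the NTT cells lay above the highest RTT cell, so that the ranges overlapped in part.

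**Figure D4:**
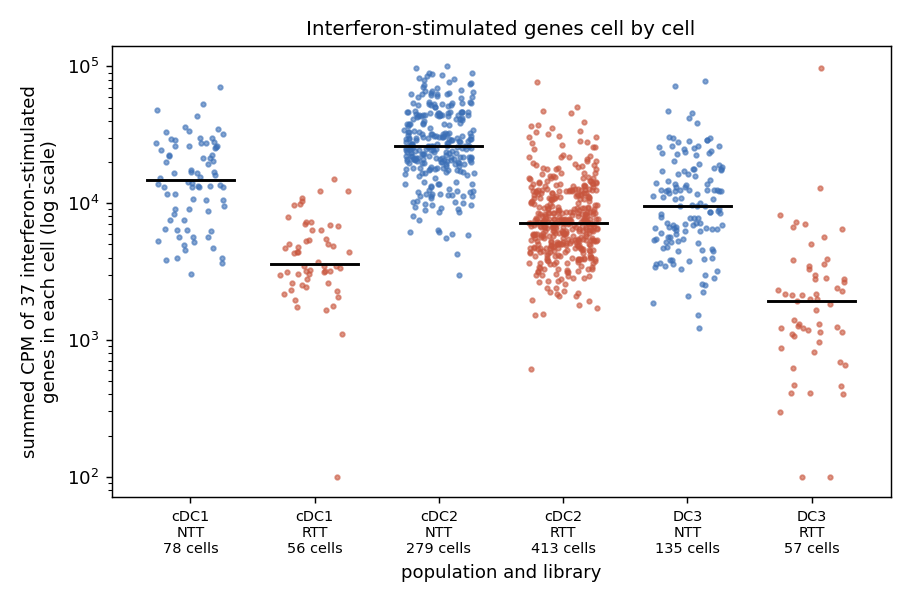
Summed CPM of 37 interferon-stimulated genes in each cell (points, log scale, cells at 0 drawn at 100) by population and library, with medians as lines. The median was 14790 CPM in NTT and 3594 CPM in RTT cDC1, and RTT lies lower in cDC2 and DC3 as well.

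The letters of the promoters were read beside this list. The interferon-stimulated response element, through which interferons induce many of these genes, was searched by its core of GAAA, any 2 bases and GAAA on both strands in the window from 250 bases before to 50 bases after each annotated gene start (RefSeq, GRCm38.p6), counting overlapping matches. It was found in 3.44% of all 32851 windows and in 3.99% of 27025 genes with a window. Of the genes in cDC1 that were at least 2-fold lower in RTT, 27 of 176 with a window held it (15.3%), against 4 of 102 that were at least 2-fold higher (3.92%) and 83 of 2354 within 2-fold (3.53%). Of the interferon-stimulated list, 15 of 30 members with a window held it. The list members with the most cDC1 UMIs that held it are printed 5′ to 3′ on the gene's strand, since their letters and their levels can be set side by side, with capitals for the matches of this core on either strand.

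Ifitm3 (chr7:141010695-141010994, minus strand): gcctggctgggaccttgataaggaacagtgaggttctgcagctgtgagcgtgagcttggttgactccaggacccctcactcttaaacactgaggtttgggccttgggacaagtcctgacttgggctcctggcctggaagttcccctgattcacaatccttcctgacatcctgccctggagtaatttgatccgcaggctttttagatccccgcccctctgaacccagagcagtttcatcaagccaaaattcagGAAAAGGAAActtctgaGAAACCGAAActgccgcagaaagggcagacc

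Isg15 (chr4:156200769-156201068, minus strand): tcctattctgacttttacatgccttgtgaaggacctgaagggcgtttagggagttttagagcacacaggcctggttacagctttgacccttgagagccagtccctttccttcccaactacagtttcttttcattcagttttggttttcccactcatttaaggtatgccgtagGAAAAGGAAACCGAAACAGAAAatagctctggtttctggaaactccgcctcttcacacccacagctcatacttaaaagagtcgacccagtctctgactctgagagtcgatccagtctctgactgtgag

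Slfn5 (chr11:82951852-82952151, plus strand): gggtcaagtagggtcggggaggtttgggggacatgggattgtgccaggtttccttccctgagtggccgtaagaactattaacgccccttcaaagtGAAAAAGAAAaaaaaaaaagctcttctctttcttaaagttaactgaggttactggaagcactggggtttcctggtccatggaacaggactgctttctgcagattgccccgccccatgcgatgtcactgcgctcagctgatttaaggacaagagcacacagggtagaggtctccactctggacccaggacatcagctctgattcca

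Bst2 (chr8:71537423-71537722, minus strand): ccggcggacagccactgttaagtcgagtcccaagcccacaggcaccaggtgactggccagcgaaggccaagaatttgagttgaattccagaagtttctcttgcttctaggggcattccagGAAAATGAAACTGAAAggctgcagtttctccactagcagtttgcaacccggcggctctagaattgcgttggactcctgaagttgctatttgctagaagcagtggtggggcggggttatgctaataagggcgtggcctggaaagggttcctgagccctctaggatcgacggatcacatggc

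In the Isg15 window 3 overlapping matches began 78, 72 and 66 bases before the start and run together into 1 block. Bst2, the tethering factor that holds budding virus at the cell surface, had 2 overlapping matches from 130 and 124 bases before the start and was at 605.5 CPM in NTT and 246.9 CPM in RTT cDC1 (-1.29). Slfn5, a Schlafen family gene, had a match from 155 bases before the start and was at 948.1 and 203.4 CPM (-2.22). The Ifitm3 matches began 2 and 19 bases after the start. Irf7, Samhd1 and Slfn2 have a window without these letters, which says only that the core is not in it, while for Ly6a, Ly6e and Zbp1 no window was used here. The interferon-gamma activated sequence TTCNNNGAA was found in 13.1% of the lower genes with a window and 7.43% of those within 2-fold. The AP-1 motif TGANTCA was found in 10.2% and 5.82% of these genes.

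Of 15 listed interferon receptor and signalling genes, 14 had 50 or more UMIs, 6 of them at least 2-fold lower in RTT, against 6.85% of all genes, and 0 at least 2-fold higher. The receptor chains Ifnar2 (217.1 and 225.2 CPM, 0.05) and Ifngr1 (232.4 and 208.2 CPM, -0.16) and the kinase Jak1 (116.2 and 109.0 CPM, -0.09) had intervals that include 0, as had Ifngr2 (-0.45) and the kinase Tyk2 (-0.07). The receptor chain Ifnar1 (-0.68) and the kinase Jak2 (-0.80) were lower by less than 2-fold with intervals that exclude 0. Among those past 2-fold, Stat2, which carries the signal to the nucleus, was at 224.8 and 75.1 CPM (-1.58), Irf1 at 111.6 and 50.8 CPM (-1.13) and the feedback protease Usp18 at 84.1 and 19.4 CPM (-2.12). Socs3, another feedback inhibitor, was at 110.1 and 33.9 CPM (-1.70), and Irf7 is given above.

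Chemokine transcripts were carried by few cells. Cxcl9, the ligand of CXCR3 (chromosome 5, 92321347 to 92328079, minus strand), had 188 UMIs in 17 NTT cDC1, 75 of them in 1 cell, and 1 UMI in 1 RTT cDC1 (log2 ratio -6.89, interval -12.20 to -4.40). Without the cell of each library with the most Cxcl9 UMIs the ratio was -4.57. Cxcl9 was found in 21.8% of NTT and 1.79% of RTT cDC1, against 6.18% of NTT and 1.96% of RTT NK_cells, so that the RTT share was not above that of cells which should lack it. In NTT NK_cells it was at 8.29 CPM, and the 89.5 CPM of RTT NK_cells came from 1 cell with 33 UMIs. In RTT, Cxcl9 was at 86.4 CPM in cDC2 and 233.1 CPM in DC3, and the log2 ratio of cDC1 was lower than that of cDC2 by -5.79 (interval of the difference -11.10 to -3.28). Cxcl10 had 67 UMIs in 5 NTT cells, 47 of them in 1 cell, and 1 UMI in RTT (-5.40, -10.73 to -2.88), -2.09 without the top cell of each library and -0.94 when cells with 1000 or more CPM of C1qa, C1qb and C1qc were left out. Ccl4 was at 120.8 and 46.0 CPM (-1.39), and Cxcl16 at 370.1 and 317.1 CPM (-0.22, -0.54 to 0.09).

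Chemokine receptors did not share one direction. Xcr1 had 105 UMIs in 31 of 78 NTT cDC1 and 172 UMIs in 45 of 56 RTT cDC1 (log2 ratio 1.37, 1.02 to 1.74). At 2000 UMIs per cell it was found in 17.9% and 40.7% of cells, a difference of 22.8 percentage points (7.15 to 37.8), and unthinned in 39.7% and 80.4%. The ratio over these thinned cells was 0.81, under 2-fold. Cxcr3, the receptor for CXCL9 and CXCL10, had 18 UMIs in 10 and 39 UMIs in 23 cells (1.78, 0.94 to 2.67). Ccr2, the receptor for CCL2, was at 201.8 and 387.4 CPM (0.94, 0.60 to 1.28), found in 26 cells of each library. Ccr7, which directs dendritic cells to lymph nodes, had 24 UMIs in 5 NTT cells and 0 UMIs in RTT cDC1 (5.05-fold lower at the floor of 3 UMIs).

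cDC1 with and without a UMI of Xcr1 differed in other genes. The split rests on detection of Xcr1, and whether these are 2 types was not tested. In NTT, the 31 cells with it had Clec9a at 207.4 CPM (160.1 to 264.3) and the 47 without it at 96.9 CPM (66.7 to 136.1), at median depths of 7863 and 7015 UMIs. Ifitm1 was at 6107 and 16770 CPM and Il1r2, the decoy receptor of IL-1, at 360.5 and 731.2 CPM. In RTT, 45 cells with and 11 without Xcr1 had Ifitm1 at 2208 and 10510 CPM and Il1b at 508.9 and 2516 CPM. Among cells with Xcr1 alone, Isg15 was lower in RTT by -4.16 (-4.94 to -3.47) and B2m by -1.29, so these differences were present also in the cells in which Xcr1 was detected.

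Among genes of antigen presentation on MHC class I, B2m, the light chain of all class I molecules, had 1369 and 367 UMIs, or 2093 and 888.5 CPM (-1.24, -1.41 to -1.07), close to its ratio in cDC2 (-1.26). The heavy chains H2-K1 (1228 and 765.0 CPM, -0.68) and H2-D1 (1997 and 1240 CPM, -0.69) and the peptide loading genes Tapbp (-0.93) and Tap1 (-0.47) were lower by less than 2-fold with intervals that exclude 0. The proteasome genes Psmb8 (2289 and 2530 CPM, 0.14, 0.03 to 0.26) and Psme1 (2217 and 2261 CPM, 0.03) were about level. Of 22 listed class I and cross-presentation genes with 50 or more UMIs, 1 was at least 2-fold lower, which was B2m, a share no larger than the 6.85% of all genes, and 0 were at least 2-fold higher. Their median was -0.47, against 0.008 over all genes. Wdfy4 had a ratio of -0.22 (-0.44 to 0.00), and Rab43, also linked to cross-presentation, -0.68 (-1.03 to -0.33).

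Sensors of nucleic acid and maturation genes were mostly sparse. Of 6 Toll-like receptor and sensor genes with 50 or more UMIs, 1 was at least 2-fold lower, Zbp1, against 6.85% of all genes, which also stands beside the counts that follow, while Tlr3 (0.05), Tmem173, which encodes STING (0.09), and Unc93b1, the chaperone of endosomal Toll-like receptors (-0.55), were within 2-fold. Of 4 dendritic cell maturation genes with 50 or more UMIs, 3 were at least 2-fold lower, Cd83, Traf1 (-1.52) and Birc3 (-1.72), and Tmem123 was at -0.04. Genes low in RTT could reach 50 UMIs through NTT alone, and all 19 listed maturation genes summed to 893.0 and 343.8 CPM. The interferon-gamma-responsive GTPases, which act against intracellular pathogens, summed to 575.0 and 108.9 CPM. The only 2 with 50 or more UMIs, Ifi47 (-2.75) and Irgm1 (-1.90), were both at least 2-fold lower. They too could pass this filter through NTT alone, and Ifi47 is also counted in the interferon-stimulated list.

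MHC class II genes were level in cDC1. H2-Ab1 was at 13288 and 14044 CPM (0.08, 0.03 to 0.13), H2-Aa at 15718 and 16201 CPM (0.04) and H2-Eb1 at 10877 and 11342 CPM (0.06). The invariant chain Cd74 was higher, at 6944 and 9493 CPM (0.45, 0.39 to 0.51). In cDC2, H2-Ab1 was higher in RTT by 0.68, and the difference between the ratios of cDC1 and cDC2 was -0.60 (-0.65 to -0.55). Of 14 class II genes with 50 or more UMIs in cDC1, 1 was at least 2-fold lower, the lysosomal protease Lgmn (235.5 and 106.5 CPM, -1.14), and 0 at least 2-fold higher.

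Among costimulatory and checkpoint genes, Cd83, a marker of activated dendritic cells, was at 241.6 and 72.6 CPM (-1.73, -2.35 to -1.16), and Lgals9, the galectin-9 gene, at 172.8 and 55.7 CPM (-1.63). The costimulatory ligand Cd86 was at 235.5 and 125.9 CPM (-0.90, -1.39 to -0.44), and Havcr2, which encodes the checkpoint receptor TIM-3, at 188.1 and 111.4 CPM (-0.76). Cd48 (229.4 and 208.2 CPM, -0.14) and Vsir (79.5 and 65.4 CPM, -0.28) had intervals that include 0, and Btla, an inhibitory receptor, was at 272.2 and 205.8 CPM (-0.40, -0.79 to -0.02). Of these 7 genes with 50 or more UMIs, 2 were at least 2-fold lower, against 6.85% of all genes, and 0 at least 2-fold higher. All 21 listed genes, also those under 50 UMIs, summed to 1716 CPM in NTT and 927.2 CPM in RTT. The PD-1 ligands were sparse, with 45 UMIs in NTT and 3 in RTT for Cd274 and the same counts for Pdcd1lg2. In cells thinned to 2000 UMIs, Cd274 was found in 10.3% of NTT cDC1 and in 0 of 54 RTT cDC1. Unthinned, it was found in 33.3% of NTT (23.1 to 44.9) and 5.36% of RTT cDC1 (1.12 to 14.9).

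Among cytokines, Il1b was at 1812 and 854.6 CPM (-1.08, -1.26 to -0.91) and was found in 87.2% and 60.7% of cells, against 34.3% of NTT and 17.6% of RTT NK_cells. At 2000 UMIs per cell these shares were 70.5% and 37.0% in cDC1, a difference of -33.5 points (-48.1 to -16.3), and 13.4% and 9.76% in NK_cells. In cells with an Xcr1 UMI its ratio was -1.38 (-1.64 to -1.12), and in those without one it was 0.15 (-0.09 to 0.39). Without cells that carried Mki67 or Top2a it was -0.47, and without the cell of each library with the most Il1b UMIs it was -1.545. Il12a, Il12b, Il6, Il10, Il27 and Il23a were at 0 UMIs in both libraries and Il15 at 2 and 1, so that a difference in these was not detectable at this depth. Flt3, the receptor for the growth factor on which cDC1 depend, was at 267.6 and 169.5 CPM (-0.66, -1.08 to -0.25), with ratios of -0.96 in cDC2 and -0.99 in DC3.

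Some lineage genes of cDC1 were nearly level, while others differed between the libraries. Clec9a (0.09), Cd24a (-0.08) and Batf3 (362.4 and 326.8 CPM, -0.15) had intervals that include 0, and Irf8 was at 2592 and 2307 CPM (-0.17, -0.28 to -0.05). Irf8 in cDC2 was lower by -1.45, a difference between the ratios of 1.29 (1.05 to 1.52). Itgae had a ratio of -0.41 (-0.80 to -0.03) in the summed UMIs and of 0.12 in the mean of per-cell CPM, so its direction turned with the scaling. Of 17 cDC1 identity genes with 50 or more UMIs, 1 was at least 2-fold lower and 1 at least 2-fold higher. The lower was Ifi205 (2161 and 832.8 CPM, -1.38), which is also induced by interferon. The higher was Xcr1, which was at 0.81 in cells thinned to 2000 UMIs. Of 16 transcription factors, 5 were just past 2-fold lower, against 6.85% of all genes, Runx3 (-1.04), Ikzf1 (-1.06), Etv6 (-1.09), Nfil3 (-1.20) and Tcf4 (-1.03), and 0 at least 2-fold higher. Tcf4 was at 0.16 in the cells with Xcr1 alone. Plet1 was at 1540 and 670.6 CPM (-1.20) and was lower in cDC2 as well (-1.11).

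Cell division genes were higher in the summed UMIs of RTT cDC1. Stmn1, a regulator of microtubules, had 120 UMIs in 10 and 315 UMIs in 23 cells (183.5 and 762.6 CPM, 2.06, 1.75 to 2.37). Mki67 was at 151.4 and 314.7 CPM (1.06) and Top2a, the DNA topoisomerase of dividing cells, at 143.7 and 389.8 CPM (1.44). In cells thinned to 2000 UMIs the Mki67 ratio was 0.15 and that of Birc5 0.31. In the mean of per-cell CPM the Mki67 ratio was 0.61. The thinned ratios of Stmn1 and Top2a stayed within their counting intervals. Cells with Mki67 or Top2a had a median of 7210 UMIs in NTT and 10743 in RTT. Of 14 genes of the G2 and M phase list with 50 or more UMIs, 10 were at least 2-fold higher, and of 9 S phase genes 6, with 0 at least 2-fold lower in either list, against 3.87% of all genes. At 2000 UMIs per cell, 12.8% of NTT cDC1 (6.32 to 22.3) and 24.1% of RTT cDC1 (13.5 to 37.6) had a UMI of Mki67 or Top2a, a difference of 11.25 points with an interval that includes 0 (-1.92 to 25.3). Unthinned the shares were 16.7% and 33.9%, a difference of 17.26 points (2.53 to 31.9), and at 1000 UMIs the difference was 14.74 points (1.88 to 28.4), both with intervals that exclude 0. In NTT cDC2 both were lower, Mki67 at 24.6 CPM against 102.8 CPM in RTT (2.06) and Stmn1 at 14.1 against 287.4 CPM (4.35). Without cells with Mki67 or Top2a, 50 genes were at least 2-fold higher in RTT in place of 126, a setting chosen after seeing the data.

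Across the lists, cDC1 and the other dendritic cells were set side by side on the same members. Over 22 interferon-stimulated genes with 50 or more UMIs in all 3 populations, the median log2 ratio was -2.13 in cDC1, -2.41 in cDC2 and -1.13 in DC3. Isg15 in cDC1 was lower than in cDC2 by -1.16 (-1.93 to -0.47) and than in DC3 by -3.06 (-3.85 to -2.36). Irf7 differed from DC3 by -3.74 (-4.59 to -2.96), since in DC3 it was at 343.6 and 282.5 CPM. By contrast Ifi205 was lower by less in cDC1 than in cDC2, where its ratio was -3.97 (difference 2.60, 2.31 to 2.89). The median over the class II genes shared by all 3 populations was 0.04 in cDC1, 0.59 in cDC2 and -0.35 in DC3. Il1r2 was at 553.6 and 87.2 CPM in cDC1 (-2.67) and at 1953 and 1319 CPM in cDC2 (-0.57). In NK_cells Il1r2 was at 335.4 and 518.0 CPM, above its RTT level in cDC1. The part of free RNA in these levels was not tested.

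**Figure D5:**
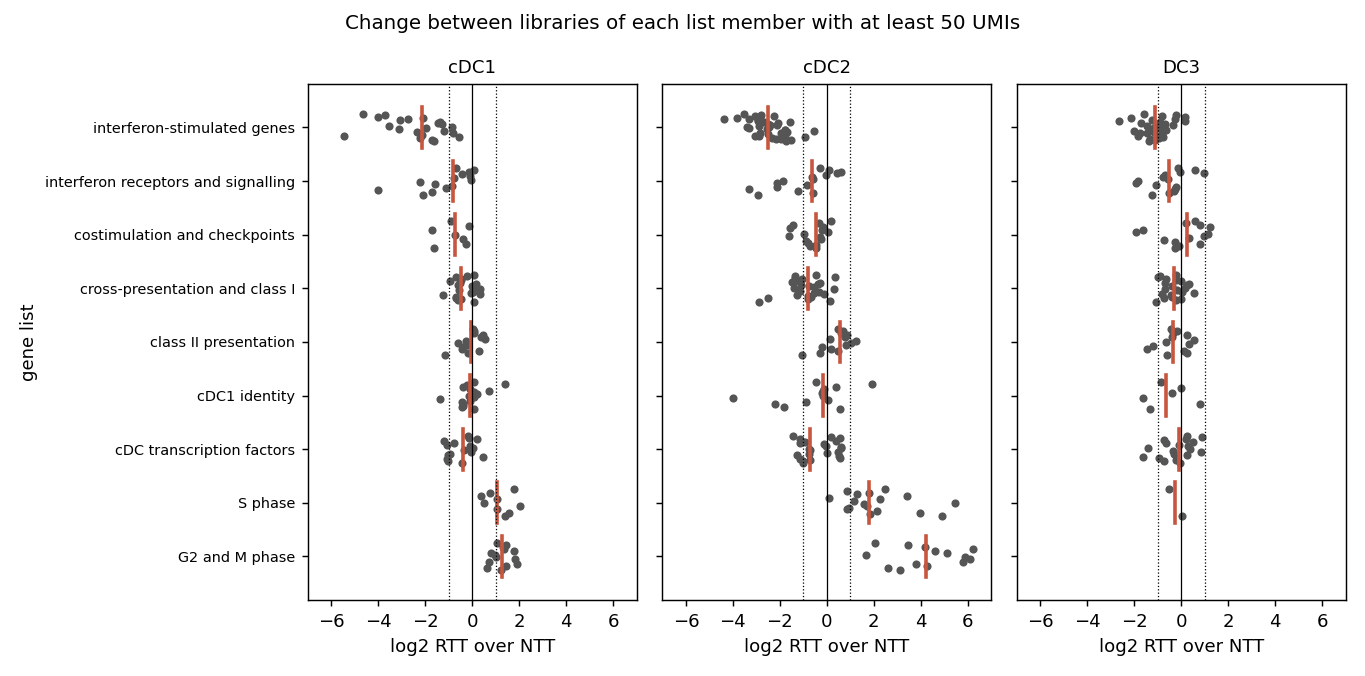
Log2 ratio of RTT over NTT (x axis) of each member with 50 or more UMIs in cDC1, cDC2 and DC3 (panels) for 9 gene lists (rows), with list medians as red bars and 2-fold limits as dotted lines. In cDC1 the interferon-stimulated genes have a median of -2.13, the class II genes -0.07 and the G2 and M phase genes 1.27.

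Of 11 glycolysis and hypoxia genes 2 were at least 2-fold lower, Ndrg1 (-1.23) and Hk2 (-1.06), against 6.85% of all genes, and the list median was -0.26. Of 12 cholesterol synthesis genes 0 passed 2-fold in either direction, while the median was -0.53 and the list summed to 2272 CPM in NTT and 1424 CPM in RTT. Fdps, a synthase of the pathway, was at 680.5 and 375.3 CPM (-0.86, -1.13 to -0.59). Of 8 early response genes 1 was at least 2-fold lower, Junb (328.8 and 142.8 CPM, -1.20), and Hspa8 was at 3474 and 4721 CPM (0.44).

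Markers of other cells moved with the libraries. The monocyte list summed to 3503 CPM in NTT and 1155 CPM in RTT cDC1. Of its 4 genes with 50 or more UMIs, 3 were at least 2-fold lower, against 6.85% of all genes. Plac8 was its largest member (2996 and 682.7 CPM, -2.13). Fcgr1, which the paper names among typical monocyte markers, was at -1.92 in cDC1, while Vcan and Chil3 had 2 and 1 UMIs each. The cDC2 list summed to 12960 and 4012 CPM, most of it Ifitm1 (11661 and 3639 CPM, -1.68). Of its 5 genes with 50 or more UMIs, 4 were at least 2-fold lower, against 6.85% of all genes. Il1r2 is given above, and Cd209a had 24 UMIs in 4 and 17 UMIs in 1 cell. The macrophage list summed to 1012 and 1198 CPM, with 106 of 144 NTT and 75 of 105 RTT C1qa UMIs in 1 cell of each library, and RTT C1qa (254.2 CPM) was under the 813.7 CPM of RTT NK_cells. The plasmacytoid dendritic cell list summed to 853.3 and 280.8 CPM. All 3 of its genes with 50 or more UMIs were at least 2-fold lower, against 6.85% of all genes. For 1 of these 3, RTT held 0 UMIs, so its ratio rests on the floor of 3 UMIs. That gene passed the filter through NTT alone. The largest member of this list, Bst2 (605.5 and 246.9 CPM), is also on the interferon-stimulated list. The highest single cell reached 20670 CPM of this list in NTT and 1381 CPM in RTT. T and NK cell markers summed to 21.4 and 0 CPM. The part of such cells or of free RNA in the results was not tested beyond leaving out cells by the C1q genes or by Ccr7 and Fscn1. Without cells with 1000 or more CPM of the C1q genes, 216 genes were at least 2-fold lower, 124 at least 2-fold higher, and the interferon-stimulated median was -2.11. Without cells with Ccr7 or Fscn1 these values were 196, 113 and -2.18.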

How the data were processed

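Live CD45+ leukocytes of 1 NTT and 1 RTT tumour were processed with the 10x 3′ chemistry. Per the labels, the authors aligned and counted reads with Cell Ranger 6.1.1 against mm10; the deposited matrix holds raw UMI counts of 12584 genes in 7815 cells, which sum to the per-cell totals of the deposited cell table for all 7815. Its 16 cell labels are the authors' own and were used as given. Cells with 1000 or fewer genes were not found among cDC1.

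UMI counts of a population were summed per library and divided by their total (CPM, computed here). Ratios carry exact binomial intervals, CPM exact Poisson intervals, shares Clopper-Pearson and share differences Newcombe intervals, and differences of ratios intervals combined from both, all at 95% and for counting error only. With 1 library per group no test was made. A gene counted as lower or higher at 2-fold with 50 or more UMIs over both libraries, so a sparse gene could pass through the library where it was high alone. Ratios against 0 UMIs used a floor of 3 UMIs over the library. Cells were thinned to 2000 UMIs for shares. No doublet caller was run; leaving out cells with other cells' markers stands in for it. Scripts were checked on simulated counts. edgeR and DESeq2 gave only scaling alternatives.

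Named genes were the 5 markers, the list members described, the 10 lowest and 10 highest with 100 or more UMIs in 10 or more cells, and the 15 most cDC1; items withheld from the text are not reported here. Members, lists and tests were chosen with earlier results of these data known. Promoter windows were matched by symbol for 2632 of 3255 genes. Python 3.11.15, numpy 2.4.6, scipy 1.17.1, pandas 2.3.3, R 4.3.3, edgeR 4.0.16 and DESeq2 1.42.0 were used.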

Additional observations from a re-analysis of the deposited data

Results flagged for a closer look

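The markers, list members and top-ranked genes with 50 or more UMIs in both compared populations were searched, not all tested genes. Of them, 8 had log2 ratios of RTT over NTT of opposite sign in cDC1 and in another dendritic cell label. At least 1 of the 2 ratios was 2-fold or more, and both counting intervals excluded 0. Whether the populations differ was not tested, since each group is 1 library. Against DC3, Cd83 was at -1.734 in cDC1 and 0.33 in DC3, and Traf1, a signalling adaptor of the TNF receptor family, at -1.519 and 0.40. Fcgr1, a high-affinity IgG receptor, was at -1.922 and 1.95, its signalling chain Fcer1g at -1.156 and 0.50, and the early response factor Fos at -0.935 and 1.745. In DC3 the macrophage marker list summed to 1008 CPM in NTT and 5785 CPM in RTT, with all 7 of its members with 50 or more UMIs at least 2-fold higher, against 1012 and 1198 CPM in cDC1; the part of such RNA in these ratios was not tested. Tubb4b, a beta-tubulin, was at 1.63 in cDC1 and -0.71 in DC3. Against cDC2, H2-Oa, a modulator of class II peptide loading, was at -0.6277 in cDC1 and 1.015 in cDC2, and Itgae at -0.4116 and 1.91, where the cDC1 ratio turned to 0.12 in the mean of per-cell CPM.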

How the results depend on the processing

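With 1 library per tumour, the tumour, library and condition cannot be told apart, and leaving out a replicate was not possible. No paired analysis was possible because each group holds 1 library. The cDC1 share of all cells was 3.263% in NTT among cells with 1500 or more genes, and 1.694% in RTT (15.38% of dendritic cells) with other-label cells of 3 or more markers. Genes at least 2-fold lower and higher numbered 50 and 22 of 865 in thinned cells, 116 and 81 of 2176 in cells with Xcr1, 1092 and 1038 of 10330 with 1 or more UMIs, and 105 and 48 of 1759 with 100 or more; without Mki67 or Top2a cells 50 of 2381 were higher. The shares lower and higher were 5.78% and 2.54% in thinned cells, 5.33% and 3.72% with Xcr1, and 10.6% and 10.0% with 1 or more UMIs, and 2.10% were higher without Mki67 or Top2a cells; the cause was not tested. TMM gave 235 and 114 and DESeq2 size factors 234 and 116. The interferon-stimulated median was -1.224 over the ISG-DC list of the study and -2.28 to -1.56 under the other settings. Genes 2-fold higher in cDC1 numbered 131 with 50 or more UMIs and 21 at 4-fold. Any G2 and M phase gene was found in 19.23% of NTT and 38.89% of RTT cDC1 at 2000 UMIs, a difference of 19.66 points (4.09 to 34.8), and unthinned the difference was 12.04 points (-4.88 to 28.2). Of 1224 values of 112 named genes, 1123 stayed within the counting interval and 101 did not. The sign turned in 17, of which 16 were of genes within 2-fold, such as Itgae, Clec9a and Sept3, and 1 of a gene past 2-fold, Tcf4 in cells with Xcr1 (0.1641). The settings of Xcr1 and of Mki67 or Top2a cells were chosen after seeing the data. In ratios, a gene at 0 of 413050 UMIs in RTT cDC1 was set to 7.26 CPM, the floor of 3 UMIs, and may lie lower or higher.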

Other observations

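Ccr2 was higher in RTT among cDC1 with a UMI of Mki67 or Top2a. In these, 13 NTT and 19 RTT cells, Ccr2 was at 126.6 and 643.4 CPM (log2 ratio 2.35, 1.59 to 3.198), and in the other cells the ratio was -0.37 (-0.94 to 0.17). The subsets were picked after the values were seen and rest on few cells.

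The receptors of prostaglandin E2 were sparse in cDC1. Ptger2 had 18 UMIs in NTT and 17 in RTT, and Ptger4 had 9 and 16. The cyclooxygenase gene Ptgs2 had 6 and 0.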
